A study of Mus musculus with 24 samples.

Results

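The genes described here move glucose into the cells of the mouse blastocyst, start and control its breakdown, and interconvert and export lactate. They are 10 genes chosen by name: the glucose transporter genes Slc2a1 and Slc2a3, the hexokinase genes Hk1 and Hk2, the phosphofructokinase gene Pfkp, the lactate dehydrogenase subunit genes Ldha and Ldhb, and the monocarboxylate transporter genes Slc16a1, Slc16a3 and Slc16a7. On the array they were read through all probes that carry one of these names, which gave 27 of 56605 probes and 10 of 37005 gene names. A probe was kept if 4 or more of the 24 arrays flagged its spots as well above background, and each gene was read from its brightest kept probe. Of the 10 genes, 9 had a kept probe and entered the fit of 18397 genes, and Slc16a7 did not.

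Total RNA from pools of frozen expanded blastocysts was hybridised to 24 one-colour Agilent arrays, 1 pool per array. The pools carry 6 condition codes, HC1 to HC6, with 4 pools each, and the study, by its title, is about activating the membrane estrogen receptor and about bisphenol A, a plastic monomer with estrogenic activity. The labels give neither the treatment behind a code nor the control, and no strain, dose or culture time, so each code was set against the other 5 and against each of them. A pool held 15 embryos, but 20 in HC6, so that condition and pool size cannot be told apart in HC6. The labels do not say that pools of a code came from separate animals or collections, so p-values here refer to pool-to-pool spread, which may be technical.

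A blastocyst consists of an outer epithelium, the trophectoderm, and an inner cell mass that gives rise to the epiblast and the primitive endoderm. Early cleavage embryos live mainly on pyruvate and lactate, and around compaction and blastocyst formation glucose uptake and glycolysis rise. Glucose enters through facilitative carriers, hexokinase traps it as glucose 6-phosphate, and phosphofructokinase commits it to glycolysis. Lactate dehydrogenase then converts pyruvate and lactate into each other, and proton-linked monocarboxylate carriers take either of them across the membrane.

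The share of spots flagged as well above background was 38.6% to 49.7% per array. The 75th percentile of processed intensity was lowest in HC5 replicate 4 (65.1), second lowest in HC5 replicate 3 (79.7) and highest in HC3 replicate 3 (177). Values below are log2 signals minus that percentile, so 0 is the 75th percentile of an array's spots. Arrays correlated with each other at r from 0.954 to 0.989 across genes. In a fit with array weights, HC5 replicate 4 had the lowest weight, 0.234, and HC4 replicate 1 the highest, 1.99. Low values in HC5 replicates 3 and 4 recur below, and whether they follow from the dimness of these arrays was not tested. The tissue label was checked against lineage genes: all 12 trophectoderm markers and all 8 primitive endoderm markers were well above background on 24 of 24 arrays, as were 9 of 10 inner cell mass markers. Of 8 cumulus and granulosa cell markers 2 were bright enough to be tested, of 8 oocyte markers 4, and of 5 blood cell markers 3. The number of arrays limits the precision of every comparison.

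The probes of these genes read different stretches of their transcripts, and some stretches gave no signal. Of the 27 probes, 14 were kept, 11 of them well above background on all 24 arrays. Another 6 were well above background on 1 to 3 arrays and 7 on none. Coordinates are those of the array annotation on mouse build mm9, and whether a probe lies in coding sequence or in an untranslated region was not analysed here. 4 probes cover more genome than their own length and so cross an intron. The stretches shown next are those on which agreement or disagreement between probes of a gene turns, written 5′ to 3′ in the sense of the transcript, whole for probes across an intron and the upstream Ldha probe, and as the first 30 bases for the others. The Slc16a3 probe is shown because the comparison between codes turns on it.
Slc2a3, probe A_51_P384222, chr6:122681586-122682419, minus strand, across an intron: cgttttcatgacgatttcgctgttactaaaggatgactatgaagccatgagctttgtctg
Slc2a3, probe A_52_P354744, chr6:122678075-122678134, minus strand, first 30 bases: gtgcttacacatttcagaccctttaggcaa
Hk1, probe A_55_P2037398, chr10:61731230-61731288, minus strand, first 30 bases: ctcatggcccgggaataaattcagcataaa
Hk1, probe A_55_P2027999, chr10:61731856-61731915, minus strand, first 30 bases: ggaatctcccatcgctttagtgagccattg
Pfkp, probe A_51_P378856, chr13:6581718-6583872, minus strand, across an intron: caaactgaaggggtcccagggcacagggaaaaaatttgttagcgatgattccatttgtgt
Pfkp, probe A_66_P108602, chr13:6580589-6580648, minus strand, first 30 bases: ttttgtaacatagttatttatcagcacttt
Ldha, probe A_55_P2141876, chr7:54103010-54103069, plus strand: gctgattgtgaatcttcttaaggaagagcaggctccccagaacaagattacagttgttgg
Ldha, probe A_55_P2012984, chr7:54110937-54110996, plus strand, first 30 bases: tgcatatggatgatggaaccaaccacccaa
Slc16a3, probe A_55_P1959425, chr11:120820023-120820082, plus strand, first 30 bases: ctgggcagtggtctgttcaccctgagtccc

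**Figure D1:**
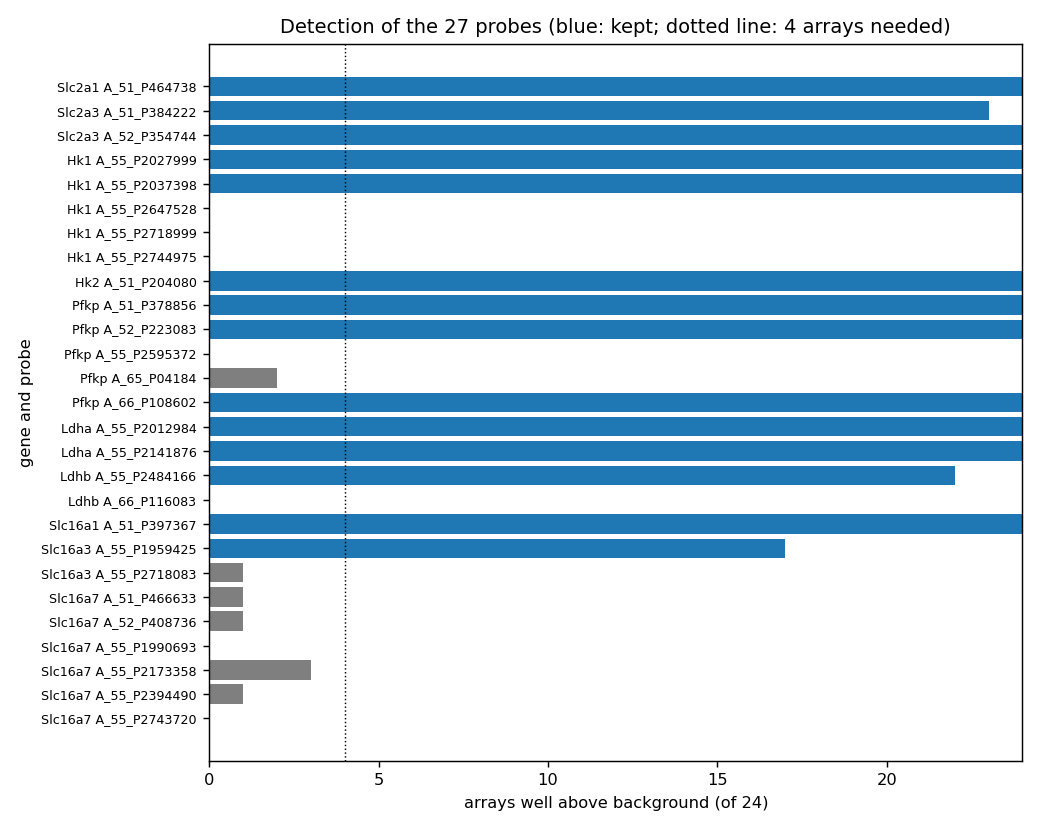
Number of arrays, of 24, on which each of the 27 probes was well above background; blue bars are probes kept for the tests and the dotted line marks the 4 arrays needed. Slc2a1, Slc2a3, Hk1, Hk2, Pfkp, Ldha and Slc16a1 each have a probe detected on all 24 arrays, and no Slc16a7 probe was detected on over 3.

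Both glucose transporter genes were read in every pool, and Slc2a3 varied little. Slc2a1 encodes GLUT1, the widespread basal glucose carrier, and its single probe (chr4:118809864-118809923) ran from 1.495 in HC1 replicate 2 over a median of 1.88 to 2.24 in HC6 replicate 4. Its condition means lay between 1.81 ± 0.27 in HC1 and 1.995 ± 0.22 in HC6 (log2, SD, n = 4 each), and the pools of all 6 conditions overlapped. Slc2a3 encodes GLUT3, a carrier of high glucose affinity that lies in the apical membrane of the trophectoderm. Its brightest probe, A_52_P354744, ran from 4.88 in HC5 replicate 4 over a median of 5.17 to 5.35 in HC3 replicate 3. The condition means of Slc2a3 stayed between 5.13 ± 0.15 in HC6 and 5.22 ± 0.07 in HC1 (log2, SD, n = 4 each). Between its highest and lowest pool Slc2a3 differed 1.39-fold, against a median of 2.16-fold over all tested genes, and Slc2a1 differed 1.68-fold. Their SDs within conditions lay at percentile 10.5 (Slc2a3) and 37.2 (Slc2a1) of all tested genes. The lowest Slc2a3 pools were single ones of HC5, HC6 and HC2 (replicate 4 at 4.88, replicate 3 at 4.91 and replicate 3 at 4.92), and no condition was low as a whole.

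The other Slc2a3 probe, the one across an intron, was well above background on 23 of 24 arrays. Over the 24 pools it correlated with the brighter probe at Pearson r = 0.64 and Spearman rho = 0.47. HC5 replicate 4 was the lowest pool on both Slc2a3 probes, with -2.12 on the intron-crossing probe, where the other 23 pools lay at -1.15 or above. Without the 2 pools farthest from the median of that probe, r was 0.42.

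Of the hexokinases, which phosphorylate glucose on entry, Hk2 was among the steadiest genes of the arrays. Hk2, the inducible isoform of muscle and fast-growing cells, ran from 3.29 in HC2 replicate 2 over a median of 3.44 to 3.73 in HC1 replicate 3, on its single probe (chr6:82675056-82675115). Its SD within conditions was 0.10 log2, at percentile 2.46 of all tested genes, where the median gene had 0.28. Hk1, the isoform found in most cell types, ran on its brightest probe from 7.99 in HC2 replicate 3 over a median of 8.44 to 8.73 in HC6 replicate 2. Hk1 condition means lay between 8.24 ± 0.21 in HC1 and 8.49 ± 0.20 in HC6 (log2, SD, n = 4 each), and every condition overlapped every other.

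The kept Hk1 probes differed in which pools they ranked high. Both were well above background on all 24 arrays and lie 626 bases apart, and over the 24 pools they correlated at r = 0.19 (rho = 0.16). The brighter probe was lowest in HC2 replicate 3, HC1 replicate 2 and HC5 replicate 4, while the other was lowest in HC5 replicate 2 (-0.71). 3 further Hk1 probes, including one across an intron far upstream (chr10:61778284-61815852), were not well above background on any array. Statements on Hk1 below therefore hold for the probe named.

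Pfkp encodes the platelet-type subunit of phosphofructokinase, the main control point of glycolysis. Its brightest probe, A_66_P108602, ran from -1.12 in HC4 replicate 2 over a median of 0.27 to 0.81 in HC5 replicate 1, a 3.82-fold range. Single pools set its spread. HC4 replicate 2 (-1.12), HC5 replicate 3 (-0.83) and HC1 replicate 2 (-0.54) were low, and the other 21 pools lay between -0.17 and 0.81. The same pools were low on the intron-crossing Pfkp probe, at -1.64, -1.65 and -1.35, and the probes correlated at r = 0.97 (rho = 0.94). The third kept Pfkp probe, A_52_P223083 (chr13:6588296-6588355), correlated with these at r = 0.63 and r = 0.57 and was likewise lowest in HC4 replicate 2, at -1.75. The remaining pools of HC4 lay between 0.27 and 0.44 on the brightest probe, so the low pool was not a feature of its condition.

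**Figure D2:**
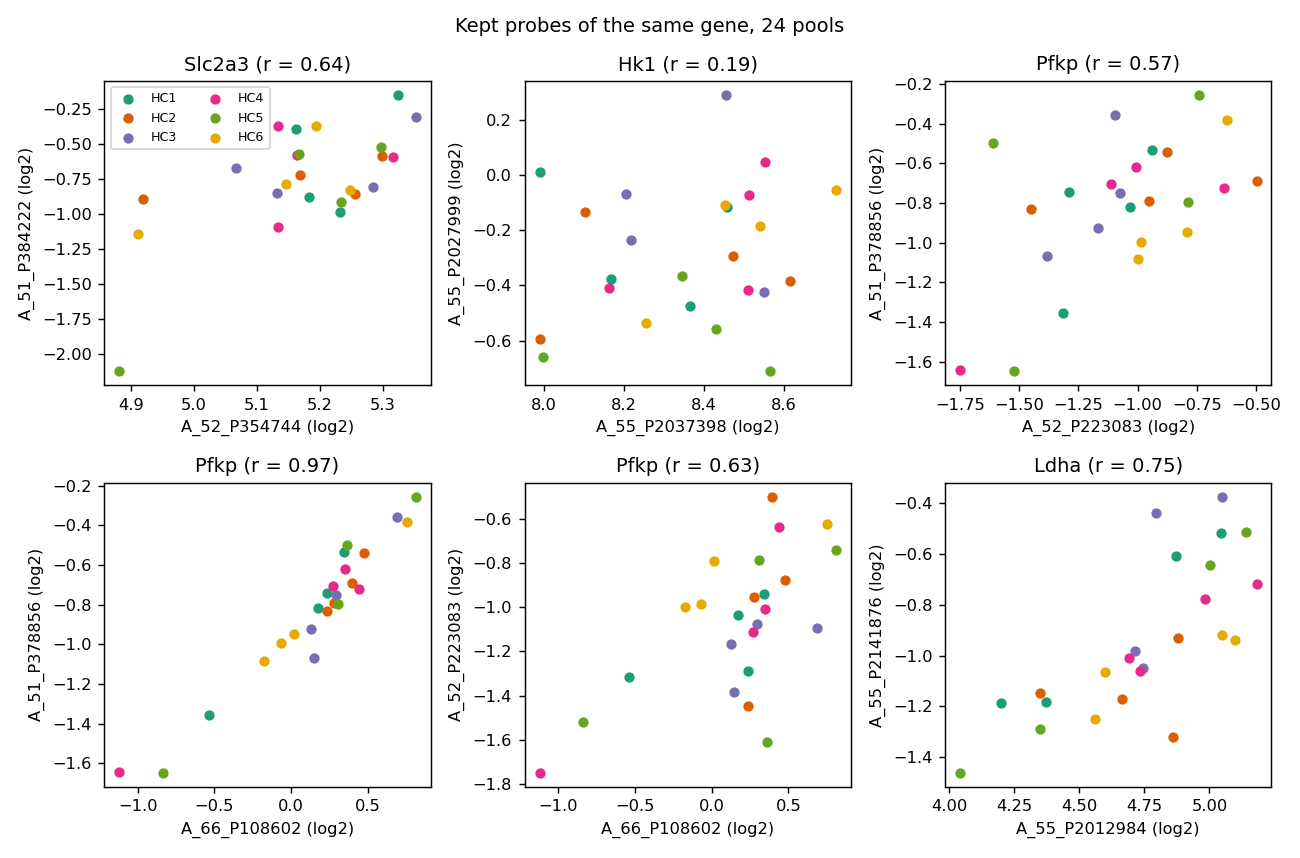
Each panel plots kept probes of the same gene against each other in log2 signal over the 24 pools, coloured by condition, with Pearson r in the panel title. The brightest and the intron-crossing Pfkp probes follow each other closely (r = 0.97), whereas the 2 Hk1 probes scatter (r = 0.19) and the Slc2a3 panel has HC5 replicate 4 at its lower left corner.

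Ldha and Ldhb encode the muscle-type and heart-type subunits that build the lactate dehydrogenase tetramer. Ldha was bright in every pool, and ran on its brightest probe from 4.04 in HC5 replicate 3 over a median of 4.77 to 5.18 in HC4 replicate 1. Its condition means lay between 4.62 ± 0.40 in HC1 and 4.90 ± 0.23 in HC4 (log2, SD, n = 4 each). Pools of one code were often far apart: in HC5, replicates 1 and 2 had 5.14 and 5.003 and replicates 3 and 4 had 4.04 and 4.35. The arrays of HC5 replicates 3 and 4 were also those of lowest 75th percentile. The upstream Ldha probe, 7927 bases away, correlated with it at r = 0.75 (rho = 0.79) and was also lowest in HC5 replicate 3, at -1.46.

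Ldhb was dim and varied between pools. Its kept probe (chr6:142438829-142438888) was well above background on 22 of 24 arrays. HC1 pools had -2.95, -2.10, -1.29 and -1.47, and HC2 pools -1.39, -1.35, -1.72 and -2.30 (log2, replicates 1 to 4). HC3 pools had -1.33, -1.31, -0.07 and -1.69. HC4 pools had -1.46, -2.12, -1.41 and -1.61. HC3 replicate 3 stood above and HC1 replicate 1 below every other pool. The latter value was not well above background, and with such values raised to each array's background floor the range of Ldhb was 5.73-fold. HC5 pools had -1.45, -1.65, -1.74 and -2.03, and HC6 pools -1.39, -1.63, -2.11 and -1.77. An Ldhb probe across an intron (chr6:142444206-142447028) was well above background on no array.

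The monocarboxylate transporters differed most in how well they were detected. Slc16a1 encodes MCT1, the widespread lactate and pyruvate carrier, and its single probe (chr3:104460941-104461000) ran from 2.77 in HC2 replicate 3 over a median of 3.14 to 3.42 in HC1 replicate 1. Slc16a7 encodes MCT2, the carrier of highest pyruvate affinity, and each of its 6 probes was well above background on 3 of 24 arrays at most. Its brightest values were single spots, among them 3.69 in HC2 replicate 2 on a probe whose other 23 pools were not well above background. Slc16a7 is therefore described as not well above background and was not tested.

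Slc16a3 encodes MCT4, the low-affinity carrier known for lactate export from glycolytic cells and induced by hypoxia. It was lowest in HC1. HC1 pools had -2.98, -2.86, -2.90 and -2.66 (log2, replicates 1 to 4), and 1 of these 4 values was well above background. HC2 pools had -1.15, -2.22, -1.39 and -1.71, and HC3 pools -1.55, -2.28, -2.27 and -2.01, with all 8 arrays above background. HC4 pools, also all above background, had -2.20, -2.67, -1.70 and -1.62. All 4 HC1 pools lay below every HC2 and HC3 pool, and 3 of them below every HC4 pool. HC5 pools had -2.14, -1.39, -2.52 and -2.09 and HC6 pools -2.05, -3.06, -1.66 and -2.25, with 2 of 4 above background in each. HC1 and HC5 did not overlap either, while HC6 replicate 2 (-3.06) was the lowest pool of all. The other Slc16a3 probe (chr11:120812519-120812578) was well above background on 1 array, so it gives no second reading.

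**Figure D3:**
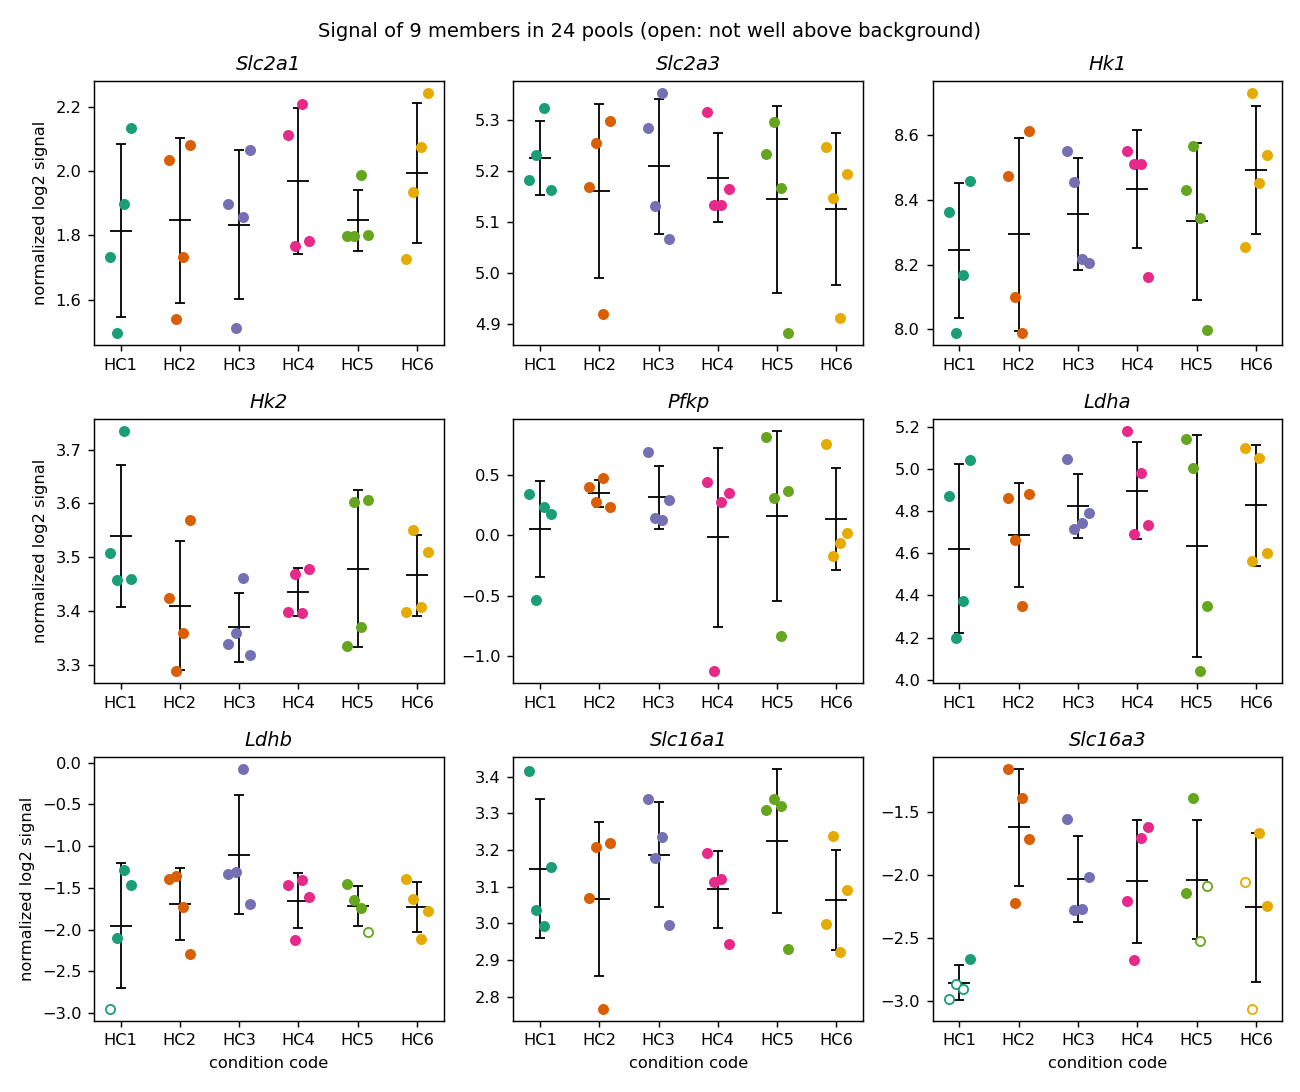
Normalized log2 signal (log2 minus the array's 75th percentile) of the brightest kept probe of 9 genes in each pool, by condition code; horizontal lines are means and error bars SDs of 4 pools, open symbols are values not well above background, and each panel has its own axis. Only in the Slc16a3 panel do the 4 HC1 pools, from -2.98 to -2.66, lie below all pools of HC2, HC3 and HC5.

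The comparison of all 6 codes asked whether any of these genes differed between conditions, and none passed the test. The moderated F-test of limma with Benjamini-Hochberg adjustment called 0 of 18397 genes (percent called 0) and 390 at an unadjusted p under 0.05, which is 2.12% of them. Of the 9 genes, 1 had an unadjusted p under 0.05: Slc16a3, with an unadjusted limma p of 0.0158, rank 102 among all genes, and an adjusted p of 1. For Ldhb the unadjusted limma p was 0.27, and for the other 7 genes it lay between 0.492 and 0.931.

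Each code was then set against the mean of the other 5. In limma 0 genes passed in any of the 6 contrasts after adjustment. In HC1, 3.29% of all genes had an unadjusted p under 0.05 (1.85% lower), and Slc16a3 was the 1 of 9 genes among them. Its mean was -2.85 ± 0.14 in HC1 (SD, n = 4) against -1.997 ± 0.47 in the other pools (SD, n = 20). The difference was -0.85 log2 (SE 0.23; 95% interval -1.34 to -0.37), with an unadjusted p of 0.00144 and an adjusted p of 1.00 in limma. HC1 was 1.81-fold lower on this scale, which rests on values of which 3 of 4 were not well above background. With dim values raised to each array's background floor, the difference was -0.74, and in the authors' deposited table it was -0.28. With normexp background correction (offset 50) and quantile normalization the difference was -0.22. That offset by itself shrinks differences between dim values, and its share in the drop was not tested. Leaving out any single pool kept it between -0.92 and -0.81.

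In HC2, where 2.27% of all genes had an unadjusted p under 0.05 (1.39% higher), Slc16a3 was again the 1 gene of 9, with a difference of 0.62 log2 (95% interval 0.14 to 1.11), an unadjusted limma p of 0.0138 and an adjusted p of 1.00. In HC3, where the share was 1.65% (1.14% higher), Ldhb was the 1 gene of 9. Ldhb had a mean of -1.10 ± 0.71 in HC3 (SD, n = 4) against -1.75 ± 0.41 in the other pools (SD, n = 20). The difference was 0.65 log2 (95% interval 0.10 to 1.20), with an unadjusted limma p of 0.0236 and an adjusted p of 1. It rested on HC3 replicate 3, without which it was 0.30. In HC4, HC5 and HC6, where 1.83%, 5.75% and 3% of all genes had an unadjusted p under 0.05, 0 of the 9 genes did.

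Between pairs of codes, limma with adjustment over genes and pairs called 0 of 275955 combinations, and 7983 had an unadjusted p under 0.05 (2.89%). Slc16a3 had such a p in 5 of 15 pairs, Ldhb in 1 and the other 7 genes in 0. The largest of these was HC1 against HC2 in Slc16a3, at -1.23 log2 (95% interval -1.86 to -0.61), with an unadjusted p of 0.000523 and an adjusted p of 1 in limma. As 3 of the 4 HC1 values were not well above background, the size of this difference is uncertain. It was -1.11 with dim values raised to the background floor and -0.46 in the authors' deposited table. With normexp, at the same offset of 50, and quantile normalization it was -0.34. The count of genes whose pools do not overlap gives the background of that pattern: 1.49% of all genes between HC1 and HC2, 1.52% between HC1 and HC3 and 1.83% between HC1 and HC5. In each of these 3 pairs Slc16a3 was the 1 gene of 9. The 5 pairs share pools and are not separate evidence.

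The intervals show which differences these arrays could have missed on the brightest kept probe of each gene. For Slc2a3, all 6 contrasts with the other codes had 95% intervals within -0.23 and 0.23 log2. For Hk2 they lay within -0.24 and 0.25, and for Slc16a1 within -0.28 and 0.31. Slc2a1 and Hk1 were bounded by -0.34 and 0.39 and by -0.39 and 0.42. The bounds were wider for Ldha (-0.52 to 0.54) and widest for Pfkp (-0.76 to 0.76) and the 2 dim genes. A difference of 2-fold from the mean of the other codes, 1 on this scale, lies outside the intervals of the 7 genes other than Ldhb and Slc16a3. Intervals between pairs of codes were wider, and those of Pfkp reached 1.057 in HC2 minus HC4 and 1.025 in HC3 minus HC4. The bounds need not hold for other probes. On the other kept Hk1 probe HC5 was lowest, at -0.57 ± 0.15 (SD, n = 4), with the other condition means from -0.35 to -0.11. On the intron-crossing Slc2a3 probe HC5 was at -1.03 ± 0.75, with the others from -0.78 to -0.60. The HC5 contrasts of these probes were not examined.

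**Figure D4:**
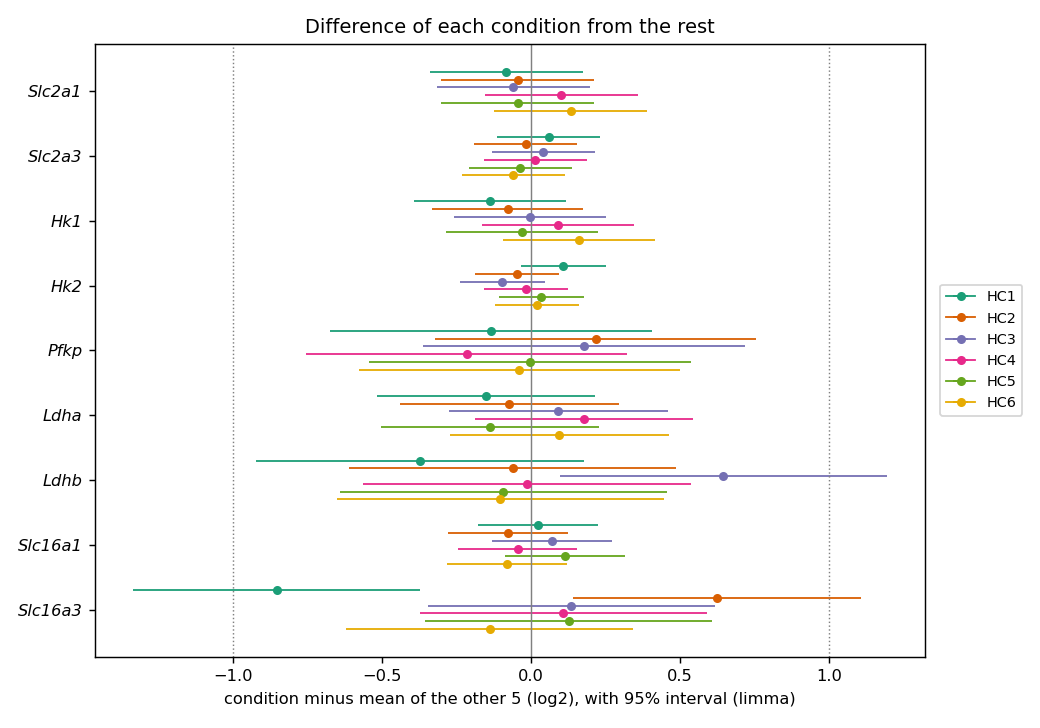
Difference in log2 signal between each condition and the mean of the other 5, with the 95% interval from limma, for the 9 genes tested; colours are conditions, the solid line is 0 and the dotted lines are 2-fold differences. The intervals of HC1 and HC2 in Slc16a3 and of HC3 in Ldhb exclude 0 before adjustment, and 0 of the 54 differences passed after it.

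Arrays came on 3 slides of 8, each holding all 6 codes, in 2 rows per slide. HC4 pools lay mostly in the first row and HC2 pools mostly in the second, while the other codes were split evenly. The contrasts above have no term for the row, so that condition and row are partly mixed in HC2 and HC4. With the row as a block, the F-test called 0 genes. The Pfkp difference in HC2 was then 0.164 in place of 0.217, and the Ldha difference in HC4 0.155 in place of 0.177. With condition in the model, limma called 0 genes for slide (percent called 0; 5.72% at an unadjusted p under 0.05) and 1852 genes, 10.1%, for the slide row (28.3% at an unadjusted p under 0.05). Of the 9 genes, 1 was among the latter. Hk1 averaged 8.51 ± 0.10 in the first row and 8.21 ± 0.20 in the second (log2, SD, n = 12 each; limma adjusted p = 0.0203). Slc16a1 was also lower in the second row, 3.05 ± 0.16 against 3.21 ± 0.11, without passing (limma adjusted p = 0.0785). Slc16a3 averaged -2.20 and -2.08 in the rows (adjusted p = 0.868 in limma), and its HC1 difference was -0.997, -0.88 and -0.68 within the 3 slides and -0.85 and -0.98 within the rows.

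Pools were then compared across codes, asking which of these genes moved together with each other and with the lineage markers. A lineage score is the mean, over a marker list, of the deviation from the 24-pool mean. Since a pool is bulk RNA, fewer cells of a lineage and less RNA per cell cannot be told apart. Relations were tested by permutation (100000 resamples, two-sided) and adjusted with Benjamini-Hochberg over the 45 relations of the 9 genes to 5 array and lineage measures, and over the 36 pairs of genes. By r, 5 of the 45 and 1 of the 36 passed, and each of these r is given below with its percentile among the r of all genes with the same measure. By rho, Slc2a1 with the share of spots above background passed as well (rho = 0.57, adjusted permutation p = 0.0484). Its r was 0.497 (adjusted permutation p = 0.1), with 0.33, -0.03 and 0.70 within slides. With the 75th percentile of the array, Slc2a1 had an r of 0.478 (adjusted permutation p = 0.108).

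Slc2a3 was higher in pools of higher trophectoderm score. Over 24 pools r was 0.76 and rho 0.81, and the unadjusted permutation p of 1e-05 is the smallest that these permutations can give (adjusted p = 0.00045). The 3 pools of lowest Slc2a3 included HC6 replicate 3, which had the lowest trophectoderm score of all, -0.46. Within slides r was 0.95, 0.88 and 0.68 (n = 8 each), within rows 0.73 and 0.75 (n = 12 each), and without the 2 pools of most distant Slc2a3 it was 0.76. Among all genes, the r of Slc2a3 with this score lay at percentile 99.7. Its r was -0.02 with the inner cell mass score and 0.33 with the primitive endoderm score, neither of which passed.

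For Hk1 the inner cell mass score gave the highest r of all 45 relations, 0.80 (rho = 0.71, permutation p adjusted to 0.00045), but score and gene both followed the slide row. The inner cell mass score was above 0 in 11 of 12 pools of the first row and in 2 of 12 of the second. Among all genes this r lay at percentile 98. Within the rows r was 0.39 and 0.72 (n = 12 each), over residuals from condition and row means it was 0.62, and with the other Hk1 probe it was 0.33 over all pools. Ldha was related to the same score at r = 0.59 (rho = 0.49, adjusted permutation p = 0.0238 for r and 0.112 for rho), with 0.78 and 0.60 within rows, 0.68 over residuals from condition and row means, and 0.56, 0.57 and 0.67 within slides. This r of Ldha lay at percentile 89.1, so that over 1 gene in 10 had a higher one.

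Pfkp followed the primitive endoderm score, at r = 0.62 (rho = 0.60, adjusted permutation p = 0.0238 and 0.039; percentile 98.3 among all genes). HC5 replicate 3, the array of second lowest 75th percentile, had the lowest score of all pools, -0.83, and the second lowest Pfkp. HC4 replicate 2, lowest in Pfkp, had a score of 0.04 or more. Within slides r was 0.67, 0.08 and 0.95 (n = 8 each), within rows 0.61 and 0.64, and with the third Pfkp probe it was 0.36. Without HC5 replicate 3 the r of Pfkp was 0.46. Ldha was related to the primitive endoderm score at r = 0.59 (rho = 0.49, adjusted permutation p = 0.0238 and 0.112; percentile 97.7). That relation fell to 0.40 without HC5 replicate 3 and was -0.61 within the second slide, so it does not hold within that slide.

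**Figure D5:**
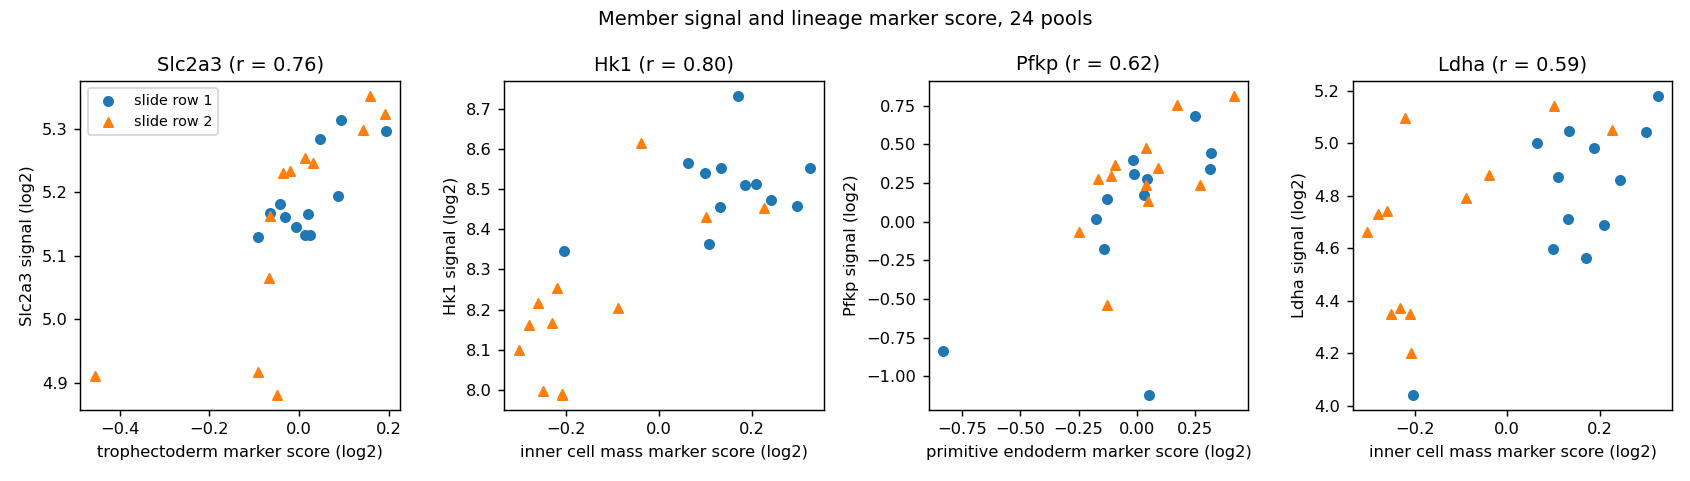
Log2 signal of Slc2a3, Hk1, Pfkp and Ldha against a lineage marker score (mean log2 deviation of the marker genes) in 24 pools, with circles for the first and triangles for the second slide row and pooled Pearson r in each title. Slc2a3 climbs with the trophectoderm score in both rows (r = 0.73 and 0.75 within them). In the Hk1 and Ldha panels the inner cell mass score is mostly higher in the first row, though the rows overlap.

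Among the 36 pairs of these genes, Slc2a3 and Slc16a1 alone passed (r = 0.61, rho = 0.49, permutation p adjusted to 0.0497 for r and 0.118 for rho). This r lay at percentile 98.1 among all genes with Slc2a3 and 98.8 among all genes with Slc16a1. Within slides r was 0.03, 0.71 and 0.63 (n = 8 each), and with the intron-crossing Slc2a3 probe it was 0.26 over all pools. Pairs with an unadjusted permutation p under 0.05 numbered 6, and the share of such pairs over all genes was not computed. Among them were Pfkp and Ldha at r = 0.55 (adjusted permutation p = 0.0629), at percentile 98.6 with Pfkp and 95.5 with Ldha. Hk1 and Slc16a1 (r = 0.56) lay at percentile 83.9 among all genes with Hk1 and 97.2 with Slc16a1. For Hk1 and Ldha (r = 0.53) the percentiles were 82 and 94.4. The lactate dehydrogenase subunits were at r = 0.12 (adjusted permutation p = 0.881), and the glucose transporters at r = -0.03 (adjusted permutation p = 0.941). Slc16a3 passed with none of the other 8 genes and none of the 5 measures. Among the genes its highest r was 0.475, with Pfkp (rho = 0.58, adjusted permutation p = 0.104 for r and 0.118 for rho). Within slides that r was 0.51, 0.48 and 0.58. The highest r of Slc16a3 among the measures was 0.20, with the share of spots above background.

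The genes most like each member were taken by the correlation of residuals from condition and slide means over 24 pools, among 18141 genes. The slide row was not removed from these residuals, and Hk1 differed by row (limma adjusted p = 0.0203). Whether the genes most like a member share such a row difference was not tested. For Slc2a3 they were Sun2 and Soat1 (r = 0.91 each), and for Hk1 Uqcrb (0.98) and Dnaaf2 (0.97). With Hk1, 1 in every 100 genes reached an r of 0.90, against 0.53 for Ldhb and 0.51 for Slc16a3. Pfkp was closest to Ank2 and to Col4a1 (r = 0.86 each), of which the second is a basement membrane collagen and one of the 8 primitive endoderm markers used above. Ldha was closest to Ccdc186 and Colgalt1 (0.86 each), Slc16a1 to Arhgap5 (0.87) and Rnf103 (0.86), Hk2 to Pvr (0.82) and Cd151 (0.81), and Slc2a1 to Eya3 (0.84) and Triap1 (0.82). The dim genes had the lowest values, 0.78 for Ldhb with Hsd17b14 and 0.77 for Slc16a3 with Itgal and with Tlcd1.

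In the rest of the pathway no gene passed either. Of 100 other genes on 7 lists, all on the array, 77 were tested and 0 passed the limma F-test, while 3 (3.9%) had an unadjusted p under 0.05 against 2.12% of all genes. These 3 were Pfkfb3, Pfkfb4 and Eno2. Pfkfb3 and Pfkfb4 make and remove fructose 2,6-bisphosphate, the activator of phosphofructokinase. Pfkfb3 was at -3.40 ± 0.44 in HC2 (SD, n = 4), where none of its 4 values was well above background, and at -2.51 ± 0.72 in the other pools (n = 20; limma adjusted p = 1.00). Pfkfb4 was at -0.996 ± 0.50 in HC6 against -1.54 ± 0.36 (limma adjusted p = 1.00), and Eno2, the neuronal enolase, at -1.93 ± 0.38 in HC1 against -1.51 ± 0.31 (limma adjusted p = 1.00). By list, 1 of 21 other glycolytic enzymes and 2 of 7 genes for phosphofructokinase-2 and fructose bisphosphatase had such an unadjusted p. None did among 6 other hexose transporters, 13 other monocarboxylate and pyruvate transport genes, 9 genes of pyruvate dehydrogenase and its kinases, 7 pentose phosphate genes and 14 hypoxia factors and targets. Over genes and codes together, 20 of 462 combinations had an unadjusted p under 0.05 (4.33%), against 2.96% over all genes.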

How the data were processed

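Per the file headers, Agilent Feature Extraction (10.10.1.1) produced the deposited linear spot intensity, with background subtraction and detrending inside each array and no normalization between arrays. A table of log2 values (27101 probes) deposited by the authors served as an alternative, and its normalization is not given in the sources used here; its column medians were 7.00 to 7.01, each of its 24 columns matched its own array best (r from 0.848 to 0.902), and it holds 15 of the 27 probes.

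Control and outlier spots were left out, log2 processed signals were averaged per probe, and each array's 75th percentile over spots was subtracted. Saturation was recorded on 0 spots. Probes were kept with spots well above background on at least 4 arrays and at least 2 values per condition. Names were taken from the files, updated through the reference gene table (41700 probes by symbol, 1518 by accession, 520 by synonym, 12867 unchanged). One linear model with 6 condition means was fitted with limma 3.58.1 (R 4.3.3; lmFit, eBayes), with Benjamini-Hochberg adjustment at 0.05 over all tested genes. Python 3.11.15 with numpy 2.4.6 and pandas 2.3.3 read the files and ran the permutations, and matplotlib 3.10.9 drew the figures. The code was tested on simulated data.

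The 10 genes and all lists were chosen with earlier results of these data known. All 10 genes are named; other pathway genes are named as up to 2 per list of smallest F-test p, and up to 2 most similar genes per member by r, of which 1 is not reported here. Alternatives were normalizations, probe rules, slide and replicate blocks, array weights and leaving out each pool. Slide rows, the background floor, other probes of a gene in the relations and the removal of HC5 replicate 3 there were added after seeing the data.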

Additional observations from a re-analysis of the deposited data

Results flagged for a closer look

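Among 162 sets of 4 pools (27 probes in 6 conditions), 11 had a pool that stood apart from the other 3 by Dixon's criterion, and chance alone gives about 1 in 20. Of the 54 sets of the probes used for the tests, 5 did. Slc2a1 was 1.99 in HC5 replicate 3, with the other 3 pools between 1.797 and 1.802. Slc2a3 was 5.32 in HC4 replicate 1, with the others between 5.13 and 5.16. Hk1 was 8.16 in HC4 replicate 4, a pool of the second slide row, with the others between 8.51 and 8.55. Pfkp was -1.12 in HC4 replicate 2 on its brightest probe, with the others between 0.27 and 0.44, and -1.64 on the intron-crossing probe, with the others between -0.72 and -0.62. Slc16a1 was 2.93 in HC5 replicate 4, with the others between 3.31 and 3.34.

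The remaining pools that stood apart were on probes not used for the tests. On the second Slc16a3 probe HC5 replicate 4 was 0.59, with the others at -4.65 or below. On Slc16a7 probes, HC2 replicate 2 was 3.69 with the others at -4.68 or below, HC3 replicate 3 was 0.0263 with the others at -5.12 or below, and HC4 replicate 2 was -2.20 with the others at -5.26 or below. Each of these was the single array of 24 on which that probe was well above background. On a Pfkp probe that was not well above background on any array, HC4 replicate 1 was -4.05, with the others between -5.69 and -5.44.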

How the results depend on the processing

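Counts of called genes stayed at 0 in most settings. The exceptions were 2 genes in HC2 with the authors' deposited log2 values, 1 in HC5 with no filter on dim probes and 1 in HC4 with array weights. Leaving out each pool in turn gave 0 to 1 calls in the F-test, in HC1, in HC2 and in HC5, 0 to 2 in HC4 and 0 to 4 over the pairs; HC1 replicate 3 (1 in the F-test, 1 in HC1 and 4 over the pairs) and HC4 replicate 4 (2 in HC4 and 3 over the pairs) gave the most. For the contrast of smallest p of each of the 9 genes, the lowest adjusted p over all settings was 0.593 (Hk1 in HC6). The Slc2a3 difference in HC6, -0.06, lay between -0.101 and 0.0113 with single pools left out, the latter without HC6 replicate 3, and the other 8 of these differences kept their sign under each setting with a test. Within slides, which hold 1 or 2 pools per code, some of these differences changed sign. Slc2a1 and Hk1 in HC6 were -0.115 and -0.145 in slide 1, and Pfkp in HC2 was -0.182 there. In slide 3, Hk2 in HC1 was -0.00535 and Slc2a3 in HC6 was 0.055. Pool numbers were not taken to pair pools, since correlations between pools of the same number averaged 0.0168 (from -0.324 to 0.338), against -0.00427 for different numbers. Yet 13 of 24 pools were most like a pool of their own number, where 6 would be if numbers carried nothing. The labels state no pairing. Pool numbers also follow the position of arrays: all pools of number 1 lay on slide 1 and all of number 4 on slide 3. Number and position therefore cannot be told apart in that count. With the replicate number as a block, 0 genes were called and the Slc16a3 difference in HC1 stayed at -0.855.

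The relations were less stable. A slide holds 8 and a row 12 pools, while the values with another probe are over all 24 pools. Slc2a3 with the trophectoderm score was 0.676 within slide 3. Hk1 with the inner cell mass score was 0.708 within slide 3, 0.393 within row 1 and 0.329 with the other probe. Ldha with the primitive endoderm score was 0.358 without the 2 pools farthest from the median, -0.61 within slide 2, 0.251 within row 2 and 0.403 to 0.691 when 1 pool was left out, of which the value without HC5 replicate 3 (0.403) missed p under 0.05. Ldha with the inner cell mass score was 0.561, 0.565 and 0.67 within slides. Pfkp with the primitive endoderm score was 0.0835 within slide 2, 0.606 within row 1 and 0.362 with probe A_52_P223083. Slc2a3 with Slc16a1 was 0.0334, 0.707 and 0.634 within slides, 0.407 within row 1 and 0.256 with the intron-crossing probe. Except for the change of sign in slide 2, the cause of which was not tested, and the other values with 1 pool left out, these kept their direction without reaching p under 0.05. Ldhb and Slc16a3, on 22 and 17 of 24 arrays above background, are limited by signal. Normexp with an offset of 50 took their differences from 0.646 to 0.292 and from -0.855 to -0.22. The offset by itself shrinks differences between dim values, so these drops do not measure the size of the differences.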
